A study of Arabidopsis thaliana with 4 samples.

Results

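The genes described here were already expressed in shoot apices of Arabidopsis thaliana in short days and were at least 2-fold higher after the plants had been moved to long days. Transcript levels were measured with oligonucleotide arrays, on which each transcript is read by a probe set, in total RNA of apices dissected from wild-type plants of the Col-0 accession. In the SD30_LD7 group the plants had grown for 30 short days and then for 7 long days. In the SD30 group they had grown for 30 short days only. Each group had 2 samples with 1 array each, and the labels do not say whether these came from separate plantings, so the spread between them may be technical. Day length and plant age cannot be told apart, because the SD30_LD7 plants were also 7 days older.

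A probe set was a member where both SD30 arrays had an intensity of 200 or more and the lower SD30_LD7 value was at least 2 times the higher SD30 value. The members were thus selected on the measured intensities of this same contrast. The rule chose 58 of the 22746 probe sets that are not controls. Of the 11354 probe sets with 200 or more on both SD30 arrays, called the background below, the 58 were 0.511 percent. By the mirror rule, 238 probe sets of the same background (2.1 percent) had a higher SD30_LD7 value at most 50 percent of the lower SD30 value. The minimum of 200 stayed on the SD30 arrays for these falls. A fall could thus end below 200, while a rise from below 200 was not counted. The counts of 58 and 238 are therefore not like for like. With the minimum on the SD30_LD7 arrays instead, an alternative chosen after seeing the data, 142 probe sets met the fold. The genes FD, SPT, XTH16, EXLA2 and LHCB4.3 were to be left out, and 0 of these 5 met the rule. The differences below are therefore descriptions and were not tested. Intensities are the authors' scaled values, and the standard errors (SE) of log2 differences, SD30_LD7 minus SD30, come from limma fitted over the 15922 probe sets left after the dimmest were dropped. In that fit each SE draws mostly on the spread of other probe sets. It is therefore not the replicate spread of the gene's own 4 arrays.

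In short days a Col-0 apex produces leaves for a long time, while long days lead to flowering. Leaves exposed to long days send the FT protein to the apex, where it acts together with FD, and the meristem then forms flowers in place of leaves. During this change the stem begins to elongate, the apex enlarges and regulators of flower formation are made. This is general background, and its part in the members' differences was not tested.

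The annotation paired 27 members with 1 gene, 0 with several, and left 31 unnamed. In the background 6059 probe sets were paired with 1 gene, and the 27 were 0.446 percent of them. Of these 27 genes, 4 have a symbol (THI2.1, EXO, IQD26 and JAL23) and 23 are listed by locus only. The roles given for those 23 are general knowledge of the protein families and do not come from the deposited values. The named members lie on all 5 nuclear chromosomes, with 10 on chromosome 1, 3 on chromosome 2, 6 on chromosome 3, 2 on chromosome 4 and 6 on chromosome 5.

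**Figure D1:**
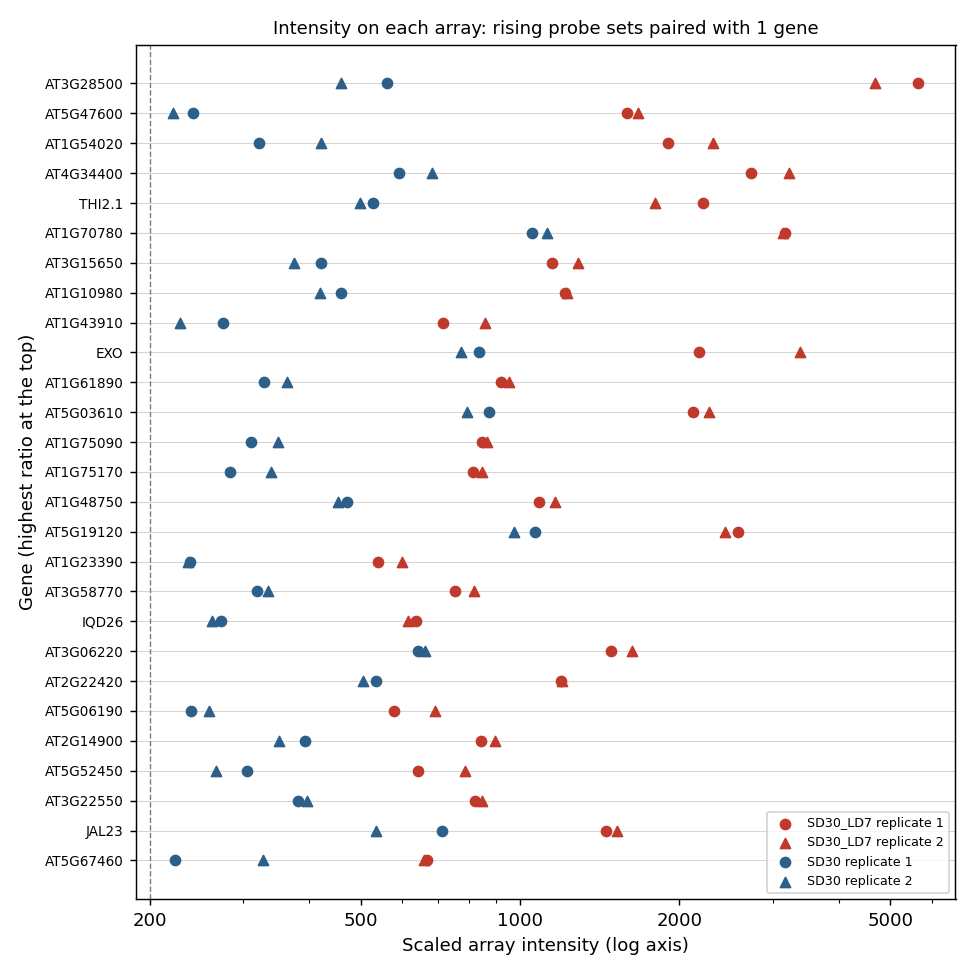
Scaled intensity (log axis) on each of the 4 arrays for the 27 members paired with 1 gene, ordered by the ratio of the lower SD30_LD7 to the higher SD30 value. Red symbols are SD30_LD7 arrays, blue symbols SD30 arrays, and the dashed line marks the minimum of 200; AT3G28500 at the top had 5647.9 and 4675.1 in SD30_LD7 apices against 561.6 and 459.3 in SD30 apices.

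Among proteins of translation and protein folding were 2 members with large differences. AT3G28500 encodes an acidic protein of the large ribosomal subunit, a family that forms the stalk to which translation factors bind. It had intensities of 5647.9 and 4675.1 in SD30_LD7 apices, against 561.6 and 459.3 in SD30 apices. Its means differed 10.1-fold, more than those of any other member. AT5G47600, of the small heat shock protein-like chaperone family, had 1590.2 and 1670.9 in SD30_LD7 apices, against 241.5 and 221.7 in SD30 apices. That is a log2 difference of 2.82 ± 0.12 (SE), and the arrays of each group lay close together.

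AT4G34400 and AT3G06220 belong to the plant B3 domain family of DNA-binding proteins, which includes regulators of the reproductive meristem. AT4G34400 had 2726.4 and 3221.3 in SD30_LD7 apices, against 589.8 and 681.6 in SD30 apices, a log2 difference of 2.22 ± 0.12. It was 4.68-fold higher by the group means and was among the 6 members whose lower SD30_LD7 value was at least 4 times the higher SD30 value. AT3G06220 had 1487.7 and 1626.4 in SD30_LD7 apices, against 642.4 and 661.7 in SD30 apices (log2 difference 1.25 ± 0.11). Intensities of different probe sets cannot be set against each other as amounts of RNA, so only differences are compared between genes.

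Other members act in signalling and in the control of protein stability. IQD26 encodes an IQ-domain protein, a family that binds calmodulin and is found at microtubules. It had 637.1 and 613.5 in SD30_LD7 apices, against 272.3 and 262.4 in SD30 apices, a log2 difference of 1.23 ± 0.13. AT1G23390, a Kelch repeat F-box gene whose protein directs chalcone synthase of the flavonoid pathway to degradation, had 540.3 and 597.7 in SD30_LD7 apices, against 238.5 and 236.4 in SD30 apices. It had a log2 difference of 1.26 ± 0.14, and its SD30 values were almost equal. AT2G14900, of the small secreted gibberellin-regulated family, had 844.5 and 898.7 in SD30_LD7 apices, against 392.3 and 350.3 in SD30 apices (1.23 ± 0.12). AT1G10980, which encodes a membrane protein with several predicted transmembrane segments, had 1214.8 and 1226.4 in SD30_LD7 apices, against 459.4 and 418.4 in SD30 apices (1.48 ± 0.11).

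A further group acts in growth and at the cell wall. EXO (EXORDIUM), an extracellular protein of brassinosteroid-promoted growth, had 2179.2 and 3379.9 in SD30_LD7 apices, against 836.7 and 773.2 in SD30 apices. Its SD30_LD7 arrays differed 1.55-fold, the widest spread in that group among the 58 members, so that its mean of 2780 ± 849 (SD, n = 2) is imprecise, while its SD30 mean was 805 ± 44.9. AT5G67460, of glycosyl hydrolase family 17, whose enzymes cut wall glucans, had 668.2 and 660.0 in SD30_LD7 apices, against 223.0 and 327.7 in SD30 apices. It was the member closest to the fold limit, with a ratio of 2.01 that its higher SD30 array set. AT2G22420, a class III peroxidase gene, of a family that acts on wall polymers and lignin, had 1194.6 and 1198.1 in SD30_LD7 apices, against 534.5 and 505.3 in SD30 apices (log2 difference 1.20 ± 0.11).

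Other members belong to families of esterases and hydrolases or of lipid carriers. AT1G54020 encodes a GDSL lipase, a secreted esterase of a large plant family, and had 1906.4 and 2317.5 in SD30_LD7 apices, against 321.2 and 420.3 in SD30 apices. Its log2 difference was 2.52 ± 0.14, the third among the named members. AT5G03610, also a GDSL lipase gene, had 2123.4 and 2271.6 in SD30_LD7 apices, against 872.7 and 795.0 in SD30 apices, a smaller difference of 1.40 ± 0.11. The rule itself sets a gap of at least 2-fold between the groups for these and all other members. AT1G48750, of the lipid transfer protein family, which carries lipids in the cell wall space, had 1087.2 and 1162.7 in SD30_LD7 apices, against 472.0 and 453.9 in SD30 apices (1.28 ± 0.11). AT1G75170, of the Sec14-like phosphatidylinositol transfer family, had 815.5 and 846.5 in SD30_LD7 apices, against 283.1 and 339.5 in SD30 apices (1.42 ± 0.13). Its probe set is the 1 member of a type that can match several genes. AT3G15650, of the alpha/beta hydrolase family, had 1147.1 and 1286.8 in SD30_LD7 apices, against 421.0 and 373.8 in SD30 apices (1.61 ± 0.12).

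Defence-related proteins with a symbol were THI2.1 and JAL23. THI2.1 encodes thionin, a small cysteine-rich antimicrobial peptide whose gene responds to jasmonate. It had 2219.8 and 1796.6 in SD30_LD7 apices, against 528.5 and 498.2 in SD30 apices, a log2 difference of 1.96 ± 0.12. JAL23, a jacalin-related lectin gene, had 1455.4 and 1526.9 in SD30_LD7 apices, against 713.3 and 534.9 in SD30 apices (1.27 ± 0.14). Here the SD30 arrays were the less similar pair, and the ratio of 2.04 lay just inside the limit.

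AT1G61890 and AT5G52450 belong to the MATE family, whose proteins export small organic compounds from cells or into the vacuole. AT1G61890 had 920.4 and 954.3 in SD30_LD7 apices, against 328.4 and 363.8 in SD30 apices (log2 difference 1.44 ± 0.12). AT5G52450 had 641.5 and 787.1 in SD30_LD7 apices, against 305.8 and 267.1 in SD30 apices (1.31 ± 0.15).

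Enzymes of other kinds were also found. AT5G19120, an aspartyl protease family gene, had 2578.4 and 2441.9 in SD30_LD7 apices, against 1065.2 and 974.7 in SD30 apices (log2 difference 1.30 ± 0.10). AT1G75090, of the DNA glycosylase family, which removes damaged bases, had 847.7 and 865.0 in SD30_LD7 apices, against 310.4 and 348.5 in SD30 apices (1.38 ± 0.12). AT1G43910, of the AAA-type ATPase family, had 715.5 and 858.6 in SD30_LD7 apices, against 274.6 and 228.0 in SD30 apices (1.65 ± 0.15).

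For AT1G70780, AT3G58770 and AT5G06190 no role is given. AT1G70780 had 3165.0 and 3132.0 in SD30_LD7 apices, against 1055.0 and 1124.6 in SD30 apices (log2 difference 1.53 ± 0.10). AT3G58770 had 753.9 and 818.6 in SD30_LD7 apices, against 318.1 and 334.6 in SD30 apices. AT5G06190 had 578.9 and 690.3 in SD30_LD7 apices, against 239.2 and 259.1 in SD30 apices. Their log2 differences of 1.27 ± 0.12 for AT3G58770 and 1.34 ± 0.14 for AT5G06190 were smaller than that of AT1G70780. AT3G22550, a gene with the FLZ-type zinc finger found in plant partners of the SnRK1 kinase, had 822.6 and 848.9 in SD30_LD7 apices, against 381.5 and 396.4 in SD30 apices. Its log2 difference of 1.10 ± 0.12 was the smallest of the 27.

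The 31 unnamed probe sets include the member with the highest ratio. Probe set 249012_at had 3450.5 and 3640.3 in SD30_LD7 apices, against 355.7 and 407.2 in SD30 apices, a ratio of 8.47 between the lower SD30_LD7 and the higher SD30 value. Probe set 247162_at had 1968.4 and 2568.6 in SD30_LD7 apices, against 409.6 and 302.0 in SD30 apices. Their log2 differences were 3.22 ± 0.11 and 2.68 ± 0.16, the first between those of AT3G28500 and AT5G47600 and the second just below AT5G47600. The 3 members with the highest intensities in short days were also unnamed. Probe set 259008_at had 5028.0 and 6021.9 in SD30_LD7 apices, against 1949.8 and 1953.4 in SD30 apices. Probe set 259664_at had 5170.1 and 5501.9 in SD30_LD7 apices, against 2416.5 and 1850.4 in SD30 apices, and 260181_at had 5146.3 and 4679.6 in SD30_LD7 apices, against 2094.2 and 2236.4 in SD30 apices. The unnamed members had a median fold of 2.85 between group means (2.17 to 9.29), against 2.60 for the named members. Unnamed probe sets were 53.4 percent of the members and 44.6 percent of the background.

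**Figure D2:**
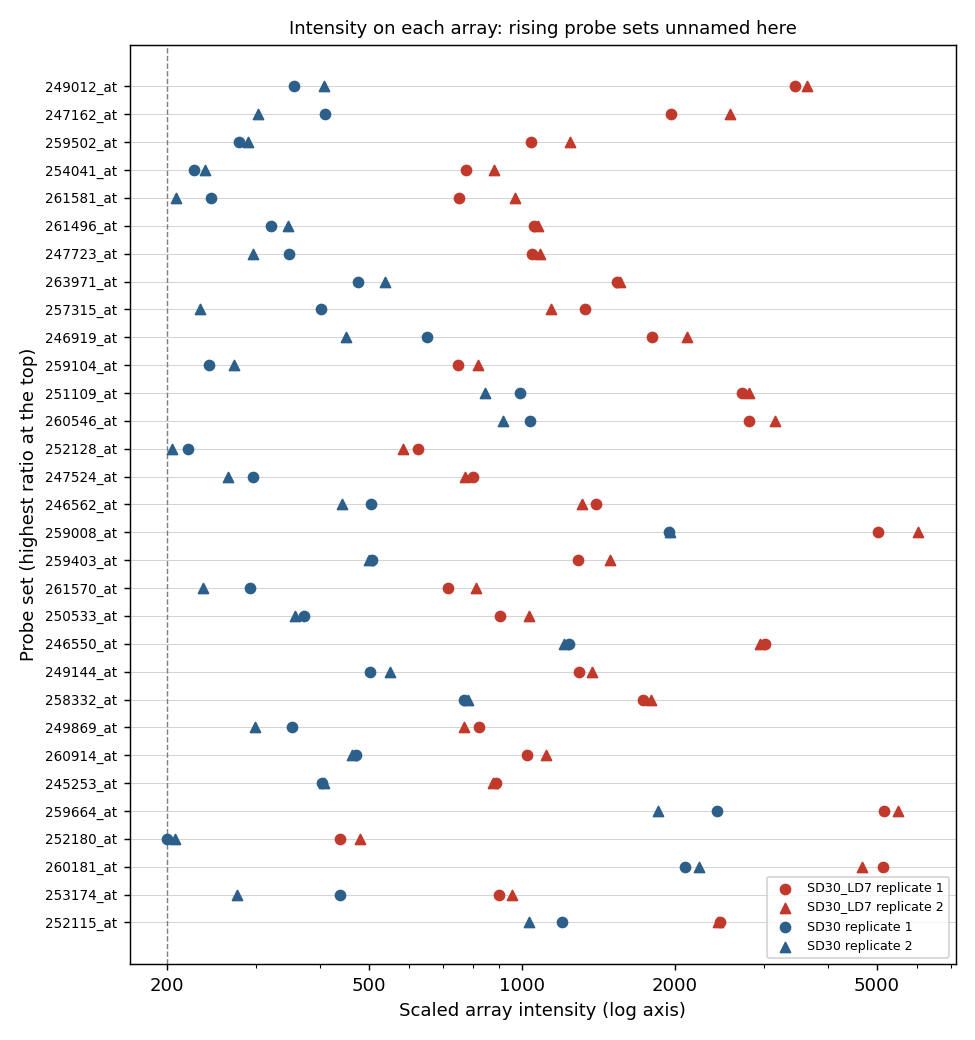
Scaled intensity (log axis) on each array for the 31 members that the annotation leaves unnamed, ordered by ratio. Red symbols are SD30_LD7 arrays and blue symbols SD30 arrays; 249012_at at the top had 3450.5 and 3640.3 in SD30_LD7 apices against 355.7 and 407.2 in SD30 apices, and the 3 with the highest SD30 intensities had SD30_LD7 values between 4679.6 and 6021.9.

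The ratio of the lower SD30_LD7 to the higher SD30 value was under 2.5 for 29 of the 58, from 2.5 to under 3 for 17, from 3 to under 4 for 6 and 4 or more for 6. The median log2 difference of the members was 1.45, against 0.02 over the background. Just inside the fold limit lay AT5G67460 (ratio 2.01), probe set 252115_at (2.03) and JAL23 (2.04), and just outside lay AT1G71970 (1.99), AT1G69580 (1.99) and AT5G54530 (1.98). At the minimum of 200 on both SD30 arrays, the members with the lowest SD30 values were 252180_at (lower value 200.3), 252128_at (204.7) and 261581_at (208.7). Just below that minimum, but past the fold, were 253101_at (198.5), AT2G03550 (191.6) and AT5G50915 (191.5). Without a minimum, 390 probe sets met the fold, and the minimum of 200 is a limit set by the rule, not a limit of detection.

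**Figure D3:**
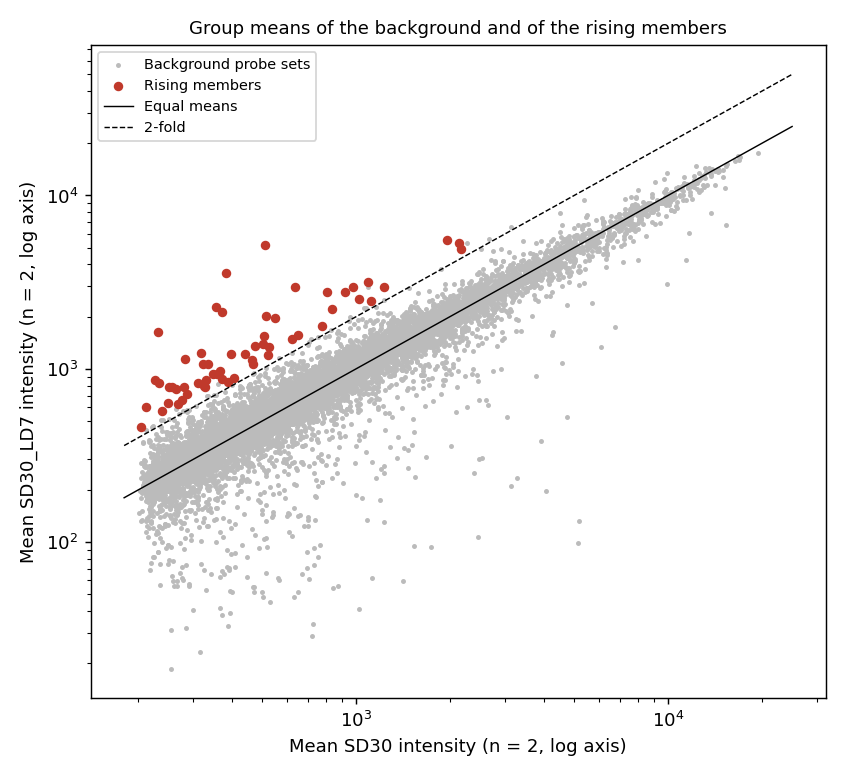
Mean SD30_LD7 intensity against mean SD30 intensity (both log axes, n = 2 arrays each) for the 11354 background probe sets in grey and the 58 members in red, with lines for equal means and for 2-fold. Members lie above the 2-fold line by the rule, and none has a mean SD30 intensity above 2165.

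The members had lower intensities than the background on the SD30 arrays and higher ones on the SD30_LD7 arrays. The rule used the values of both groups and set a gap of at least 2-fold for the members only. Their higher SD30_LD7 values are thus in part fixed by it, and intensities of different probe sets are not amounts of RNA. Their mean SD30_LD7 intensity had a median of 1207 and a range of 459 to 5525, and their mean SD30 intensity a median of 385 and a range of 204 to 2165. The background had medians of 687 on the SD30_LD7 arrays and 674 on the SD30 arrays. Of 2865 background probe sets with a mean SD30 intensity of 200 to 400, 31 were members (1.08 percent), and of 3726 with 400 to 800, 16 (0.429 percent). Between 800 and 1600 there were 8 of 2686 (0.298 percent), and between 1600 and 3200 there were 3 of 1272 (0.236 percent). At 3200 and over 0 of 805 were members, which allows a share of up to 0.373 percent. The mirror falls did not show such a slope, with 2.44, 2.25, 1.56, 2.20 and 1.74 percent over the same 5 bins. The bins are cut on SD30 values, which the rule and its mirror both used. The minimum of 200 lay on the SD30 arrays for rises and falls alike, so the slopes are not a like comparison. Why the shares differ was not tested.

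**Figure D4:**
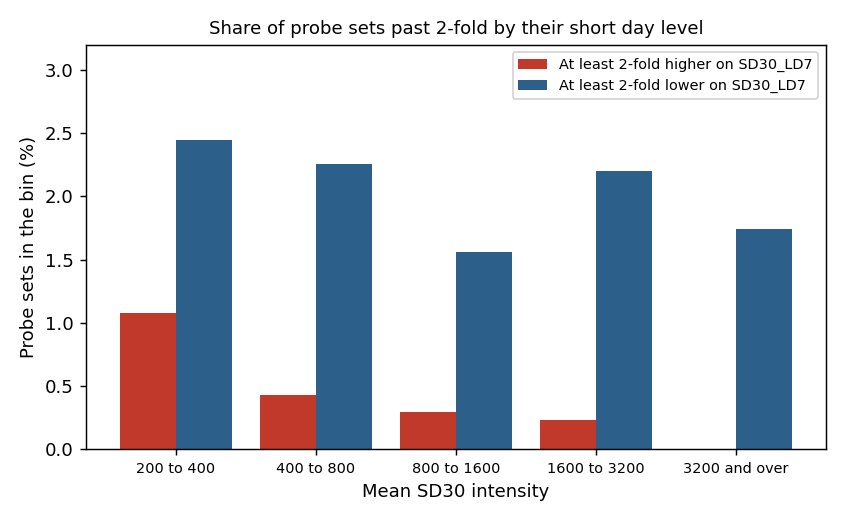
Percent of background probe sets that met the rule (red) or its mirror for falls (blue) in 5 bins of mean SD30 intensity. The red bars decline from 1.08 percent in the dimmest bin to 0 in the brightest, while the blue bars lie between 1.56 and 2.44 percent. The bins are cut on SD30 values that the rule and its mirror both used.

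The members' values were about as repeatable as those of other probe sets. The higher array was a median of 1.07 times the lower one in SD30_LD7 apices, against 1.09 over the background, and a median of 1.10 times in SD30 apices, against 1.09 over the background. The rule favours members with a small spread. In SD30 apices 2 members had arrays more than 1.5-fold apart, the unnamed 257315_at with 402.8 and 232.6 and 253174_at with 438.4 and 275.1. SD30_LD7 replicate 2 was above replicate 1 for 43 of the 58 members (74.1 percent), against 51.9 percent of the background. In the SD30 group replicate 2 was the higher for 23 members (39.7 percent), against 51.6 percent of the background. The actin control, whose 3' signal over its 5' signal grows as RNA degrades, had ratios of 8.27 and 4.64 in SD30_LD7 apices and 6.51 and 5.72 in SD30 apices; its part in these counts was not tested. Together the members took 0.651 and 0.709 percent of the summed intensity in SD30_LD7 apices, against 0.227 and 0.217 percent in SD30 apices. The rule fixed the direction of this difference, and summed intensities are not amounts of RNA.

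Within the families of 3 symbol-named members, the genes differed in the size and the sign of their log2 differences. These families were chosen after their values were seen, and their other genes are given as values without a test. The annotation names 4 jacalin-related lectin genes, and of these JAL23 was the 1 member. JAL34 had 224.2 and 221.4 in SD30_LD7 apices, against 807.9 and 740.8 in SD30 apices, and JAL33 had 74.8 and 46.8 in SD30_LD7 apices, against 173.8 and 203.8 in SD30 apices. JAL22, which lies 2 protein-coding genes from JAL23, had 23.9 and 18.2 in SD30_LD7 apices, against 164.4 and 189.6 in SD30 apices. JAL22 thus lay in the opposite direction to JAL23, whose direction and gap the rule had set. The SD30_LD7 values of JAL22 lay near 23.5, the floor to which lower intensities were set for the fit.

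Of 11 IQ-domain genes named, 7 had 200 or more on both SD30 arrays and IQD26 was the 1 member among them. IQD18 had 259.8 and 338.2 in SD30_LD7 apices, against 128.5 and 125.6 in SD30 apices, a log2 difference of 1.22 close to the 1.23 of IQD26, but it was below the minimum. IQD22 had 753.1 and 791.3 in SD30_LD7 apices, against 517.4 and 503.0 in SD30 apices (0.60 ± 0.12). At the other end IQD24 had 198.2 and 195.7 in SD30_LD7 apices, against 248.0 and 217.5 in SD30 apices, and the family's median log2 difference was 0.37. THI2.2, the other thionin of its symbol, had 151.1 and 168.4 in SD30_LD7 apices, against 255.9 and 291.4 in SD30 apices. Its log2 difference was -0.78 ± 0.18, opposite to that of THI2.1.

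**Figure D5:**
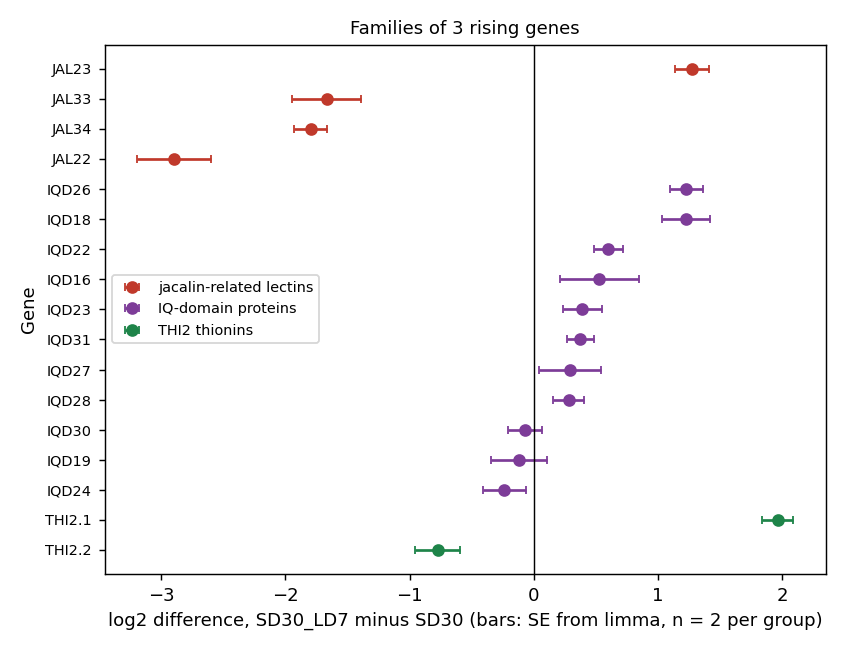
Log2 difference, SD30_LD7 minus SD30, with its SE from limma (2 arrays per group) for the 4 jacalin-related lectin, 11 IQ-domain and 2 THI2 genes named by the annotation. JAL23, IQD26 and THI2.1 lie between 1.23 and 1.96, while JAL22, JAL33, JAL34 and THI2.2 lie below 0.

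Genes near the named members on the chromosome were also read. Among the 2 protein-coding genes on each side of the 27 members, 53 were measured, and 30 of these, beside 20 members, were in the background. Of the 30, 0 met the rule and 0 met its mirror; with shares of 0.446 and 1.77 percent over the background paired with 1 gene, so few genes could hold hardly any. The fold of their group means, SD30_LD7 over SD30, had a median of 1.05 and a range of 0.867 to 1.499. The highest of the 30 was AT1G10990, next to AT1G10980, with 904.1 and 844.7 in SD30_LD7 apices, against 549.2 and 617.6 in SD30 apices. The other 23 lay below 200 on at least 1 SD30 array and varied more widely. JAL22, given above, was 1 of them. AT3G28520, near AT3G28500, had 17.1 and 23.5 in SD30_LD7 apices, against 1.8 and 3.0 in SD30 apices, all at or below the floor of 23.5. AT5G03600, the gene beside the GDSL lipase gene AT5G03610, had 51.2 and 26.3 in SD30_LD7 apices, against 22.4 and 70.5 in SD30 apices, so that its groups overlapped at a low level. Among the 27 named members none were adjacent, and the unnamed ones could not be placed. The closest pair, AT1G75090 and AT1G75170, had 8 protein-coding genes between them. The median gene length, from the TAIR10.1 annotation and with introns, was 1918 bases for the named members and 2455 bases for the background.

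Gene lists of 17 functions, matched to symbols and their synonyms, covered 227 of the 6059 background genes. The lists of ribosomal proteins and of translation factors held 0 of these genes, so AT3G28500 was counted in neither. THI2.1 in the list of defence and stress was the 1 member among them (0.441 percent, against 0.446 percent of the background paired with 1 gene), and 10 of the 227 met the mirror rule (4.41 percent, against 1.77 percent). The list of defence and stress held 22 background genes with 1 member and 2 mirror falls, and that of cell wall 16 with 0 and 0. Transcription factors had 52 with 0 members and 2 mirror falls, transporters 10 with 0 and 0, and lipid, wax and cuticle 5 with 0 and 0. The median log2 difference was -0.204 for defence and stress and -0.197 for cell wall. It was 0.043 for transcription factors, 0.109 for transporters and 0.075 for lipid, wax and cuticle. Most members carry no symbol that such a list could match, so these counts describe few of them. Members described above in such roles, among them AT4G34400, EXO and AT1G61890, were matched by no list. A count of 0 for a list thus does not mean that no member has that role.

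The tissue was checked with marker genes, of which the annotation names few. ULT1, a regulator of the shoot meristem, had 1056.3 and 1162.9 in SD30_LD7 apices, against 1019.7 and 986.4 in SD30 apices. CLV3, the stem cell signal of the meristem, had 72.6 and 87.9 in SD30_LD7 apices, against 72.9 and 103.5 in SD30 apices, so the groups overlapped. UFO, the 1 marker of floral primordia measured of 10, had 181.2 and 199.7 in SD30_LD7 apices, against 29.3 and 57.4 in SD30 apices. The log2 difference was 2.21 ± 0.32 for UFO, whose values all lay below 200, and 0.14 ± 0.11 for ULT1. The 5 leaf markers measured of 15 summed to 19660 and 18067 in SD30_LD7 apices, against 26333 and 21863 in SD30 apices. LHCB4.3 in that list lay the other way, with 435.3 and 413.1 in SD30_LD7 apices, against 126.7 and 131.5 in SD30 apices, and the sum is mostly that of brighter genes. The 3 measured of 7 for epidermis, trichome and guard cell summed to 437.7 and 443.1 in SD30_LD7 apices, against 595.1 and 508.9 in SD30 apices, while TRY in that list had 181.3 and 167.7 in SD30_LD7 apices, against 153.2 and 136.3 in SD30 apices. The 2 of tapetum and pollen summed to 1048.5 and 887.2 in SD30_LD7 apices, against 1179.9 and 1266.7 in SD30 apices. Nearly all of that sum was EMS1, with 1042.7 and 874.0 in SD30_LD7 apices, against 1152.9 and 1239.4 in SD30 apices. AMS, a regulator of the tapetum, was at 27.3 or less on all arrays. Of 4 vascular markers, 0 were among the genes that the annotation names, so this list has no values. The sums of the leaf, the epidermis and the tapetum lists were lower in SD30_LD7 apices on every array, and their part in the members' differences was not tested. In whole apices, more RNA per cell and more cells of a type cannot be told apart.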

How the data were processed

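Total RNA of dissected apices was hybridised to 1 array per sample, 2 per group, and samples were grouped by their labelled growth conditions. The authors deposited a table of linear intensities, 1 for each array and probe set. After trimming 2 percent at each end, array means were 500.033 to 500.036, a common scale set before deposition. The signal software is not stated in these sources. With 2 arrays per group, the precision is limited.

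The 64 control probe sets were left out. Probe sets were named from a platform annotation, with symbols updated by gene identifier to the TAIR10.1 gene table, which also gave gene order and length. The rule was applied to the deposited intensities with no further normalization. For standard errors, intensities below 23.5 (the 20th percentile) were set to that value, log2 values were taken, the dimmest 30 percent by mean were dropped, and limma 3.58.1 in R 4.3.3 was fitted to 15922 probe sets (lmFit and eBayes with an intensity trend). The fit was tested on simulated data with known changes. Plots were made in Python 3.11.15 using matplotlib 3.10.9.

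The members and gene lists were chosen with earlier results of these data known. The rule for named genes took the 10 highest ratios, the 8 brightest, 4 per gene list, those at the thresholds, and neighbours or paralogs; as all 27 members with a gene are few, all were described. The marker symbol FDH stands for another gene in the annotation and was left out. Promoter motifs were planned and not analysed here. Alternatives tried were leaving out each array, a replicate block, median centring, quantile normalization, other minimums and folds, group means, a pseudocount of 16, and leaving out probe sets that can match several genes.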

Additional observations from a re-analysis of the deposited data

Results flagged for a closer look

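None of the 64 control probe sets met the rule (0 of 64). Among them AFFX-r2-At-U12639_at met its fold but not its minimum, and it lies outside every comparison above. It had a mean intensity of 269 in SD30_LD7 apices (230.4 and 306.9), against 17.95 in SD30 apices (25.2 and 10.7).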

How the results depend on the processing

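The number of members depended on the limits of the rule and less on the scaling. Relative to 58, leaving out 1 array gave 66 to 90, the highest without SD30 replicate 1, and all 58 stayed among them, as the rule then asks less. A minimum of 100 gave 96 and of 400 gave 27, a fold of 1.5 gave 185 and of 3 gave 12, and group means gave 88. A minimum on the SD30_LD7 arrays in place of the SD30 arrays, an alternative chosen after seeing the data, gave 142. Median centring gave 63, of which 56 were members, and quantile normalization gave 58, of which 55 were members. With the replicate block, pairing same-numbered arrays, 61 probe sets met the rule, 58 of them members. The labels give the numbers no shared planting or day, and across the background the deviations of same-numbered arrays correlated at 0.09, so the numbers were not taken to pair the samples. The median log2 difference of 1.45 moved to between 1.38 and 1.49 without 1 array, and was 1.505 after median centring and 1.43 after quantile normalization. The log2 differences of the 27 named genes lay between 1.02 and 3.48 under 8 alternatives; the rule fixes their sign, and a size of at least 1 without any 1 array, so this is no sign of stability.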
